A study of Mus musculus with 4 samples.

Results

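The 9 genes described here are 5 genes for S100 proteins (S100a6, S100a10, S100a11, S100a4 and S100g) and 4 for annexins (Anxa1, Anxa2, Anxa3 and Anxa5). They were matched by symbol among the 27998 genes counted in single cells of mouse lung, and each was found once. Each library was split into cells that give at least 5% of their unique molecular identifiers (UMIs, 1 per captured transcript) to Sftpc, the surfactant protein C gene that marks alveolar type 2 (AT2) cells, and cells that give less. These are called Sftpc-high and Sftpc-low cells, and levels are UMI counts per 1000000 counts (CPM) of the cells pooled.

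The study followed AT2 cells through lung injury by bleomycin, a drug that damages DNA, in young adult and middle-aged mice. All mice carried Sftpc-creER;Rosa26-mTmG, in which the Sftpc promoter drives a tamoxifen-inducible Cre that switches a membrane reporter to GFP, and all were given 4 tamoxifen doses. Bleomycin (0.8 U/kg, 1 dose into the trachea) or phosphate-buffered saline (PBS) was given on day 14 after tamoxifen. The 4 libraries were 12-month bleomycin and 3-month bleomycin, both labelled day 30, and 12-month PBS and 3-month PBS, both labelled day 0, so drug and day cannot be told apart. Each library pooled 3 mice. The sort took GFP-positive cells without CD45, a leukocyte protein, or CD31, an endothelial one, and these were captured with a droplet kit that reads the 3' ends of transcripts. With 1 library in each group there was no test: intervals are 95% intervals that cover counting error only, and a member is called higher or lower here only from 1.5-fold, with at least 20 CPM in 1 of the compared pools.

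After the cell filter 2993, 2624, 2745 and 2394 cells remained in the 12-month bleomycin, 3-month bleomycin, 12-month PBS and 3-month PBS libraries, 10756 in all. The libraries differed in depth, with 36960380 and 23379893 UMIs in the bleomycin libraries at 12 and 3 months and 14214212 and 11381566 in the PBS libraries at those ages. Sftpc-low cells made up 18.1% of the 12-month bleomycin and 12.4% of the 3-month bleomycin library, against 6.38% of the 12-month PBS and 3.59% of the 3-month PBS library. The 12 AT2 marker genes summed to between 219660 and 270167 CPM in the Sftpc-high pools and to between 41248 and 61839 CPM in the Sftpc-low pools. Sftpc is 1 of the 12, at 133061 to 164177 CPM in the Sftpc-high and 16336 to 28263 CPM in the Sftpc-low pools. The split was made on Sftpc, so this difference was in large part set by the rule. It is no separate check of the AT2 label. Among the 1129 Sftpc-low cells 136 (12.0%) clustered as AT2-like. Macrophage-like (162 cells), T or NK-like (98), B-like (54) and endothelial-like (71) cells were present although the sort was set to remove CD45+ and CD31+ cells. Between 7 and 20 cell barcodes were shared by each pair of libraries.

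S100 proteins are small calcium-binding proteins that work mostly as dimers: on binding calcium they expose a surface that docks onto partner proteins. Annexins bind membrane phospholipids in the presence of calcium and take part in membrane repair, vesicle traffic and the resolution of inflammation. The families meet in complexes, of which S100A10 with annexin A2 and S100A11 with annexin A1 are the best described. In the injured alveolus, AT2 cells that leave the surfactant programme pass through a flat, keratin 8-rich transitional state on the way to alveolar type 1 (AT1) cells.

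Of the 9 genes, 5 lie on chromosome 3 (GRCm38, GENCODE M21). S100a4 (chr3:90603771-90606045, plus strand) and S100a6 (chr3:90612882-90624181, plus strand) are neighbours, as are S100a11 (chr3:93520488-93526287, plus strand) and S100a10 (chr3:93555080-93564643, plus strand), while Anxa5 lies apart (chr3:36448923-36475894, minus strand). S100g is at chrX:162961992-162964599 (minus strand), Anxa1 at chr19:20373428-20390944 (minus strand), Anxa2 at chr9:69453620-69491795 (plus strand) and Anxa3 at chr5:96793339-96845966 (plus strand). Counts of S100a11 are uncertain because 5 near copies, 90.6 to 99% identical over at least 100 bases, are in the annotation and none was counted as a gene of its own. Gm42674 shares 4 of the 5 S100a4 exons on the same strand and was listed at 0 counts, against 1773 for S100a4, so reads of this pair cannot be told apart.

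RefSeq promoters (GRCm38.p6) were found for 7 of the 9 genes, and the 250 bases before each transcript start were searched on both strands. The 4 shown are those of S100a11 and Anxa2, the members with an AP-1 match, of S100a6, which was higher in Sftpc-low than in Sftpc-high cells of all 4 libraries, and of S100g, which was lower there in all 4. Bases inside annotated exons are left out. Capitals mark TGANTCA, the letters bound by AP-1 factors.
S100a11, chr3:93520246-93520487, plus strand: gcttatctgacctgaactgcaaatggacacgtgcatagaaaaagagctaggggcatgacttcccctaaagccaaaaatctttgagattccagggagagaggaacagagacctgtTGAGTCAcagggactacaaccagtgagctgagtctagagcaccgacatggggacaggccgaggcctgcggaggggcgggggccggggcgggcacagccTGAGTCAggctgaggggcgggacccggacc
Anxa2, chr9:69453433-69453619, plus strand: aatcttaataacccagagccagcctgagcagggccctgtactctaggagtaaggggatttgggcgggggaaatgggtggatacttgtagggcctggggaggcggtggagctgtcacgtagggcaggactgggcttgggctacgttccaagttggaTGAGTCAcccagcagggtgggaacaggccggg
S100a6, chr3:90612644-90612881, plus strand: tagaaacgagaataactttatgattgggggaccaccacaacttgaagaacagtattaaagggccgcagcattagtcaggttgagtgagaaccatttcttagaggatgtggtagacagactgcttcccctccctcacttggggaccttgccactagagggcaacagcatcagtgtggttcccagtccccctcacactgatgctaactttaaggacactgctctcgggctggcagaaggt
S100g, chrX:162964600-162964849, minus strand: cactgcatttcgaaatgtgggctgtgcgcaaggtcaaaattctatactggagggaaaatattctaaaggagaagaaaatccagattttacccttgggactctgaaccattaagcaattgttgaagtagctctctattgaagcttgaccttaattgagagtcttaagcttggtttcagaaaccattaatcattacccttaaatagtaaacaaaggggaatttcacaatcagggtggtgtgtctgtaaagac

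The S100a11 promoter holds TGAGTCA 136 and 38 bases before the start, and the Anxa2 promoter holds it 95 bases before the start. These were the 2 of 7 members with a TGANTCA match, against 6.75% of 32851 RefSeq promoters. GGAATG, the TEAD motif, matched in 1 of the 7 (Anxa1), against 12.6% of promoters, and the TATA box letters TATAAA in 3 of the 7 (S100a4, Anxa1 and Anxa2), against 12.4%. TTCNNNGAA, a STAT motif, matched in 0 of the 7, against 7.02% of promoters, and GGG and CC with 5 free bases between them, an NF-kB motif that can overlap itself on both strands, in 5 of the 7, against 45.8%. A match says that these letters are present, not that a factor binds there.

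Within the Sftpc-high cells Anxa1 was higher after bleomycin at both ages, S100a11 and Anxa2 were higher at 12 months, and 0 members were called lower. Anxa1, an inhibitor of inflammation that also binds S100A11, had 151.2 CPM in 12-month bleomycin cells against 29.6 CPM in 12-month PBS cells, and 110.5 CPM in 3-month bleomycin cells against 44.6 CPM in 3-month PBS cells. Both bleomycin libraries lay above both PBS libraries, and the ratio was 5.09-fold (4.60 to 5.67) at 12 months and 2.48-fold (2.25 to 2.74) at 3 months. Anxa1 was the 1 of 8 members reaching the minimum that was called higher at 3 months, when 8.99% of all genes tested were called higher and 11.1% lower. At 12 months 3 of 8 were called higher (Anxa1, S100a11 and Anxa2) and 0 lower, against 18.5% and 10.6% of all genes. The median log2 ratio of the 8 members tested was 0.41 at 12 months and 0.11 at 3 months, against 0.10 and -0.01 for all genes tested. S100a4 did not reach the minimum in these cells.

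S100a11, a partner of annexins A1 and A2 at damaged membranes, followed Anxa1 with a smaller ratio. It had 1417 CPM in 12-month bleomycin against 781.8 CPM in 12-month PBS Sftpc-high cells, and 992.5 CPM in 3-month bleomycin against 756.5 CPM in 3-month PBS cells. The PBS libraries were nearly level while the bleomycin libraries differed by age: the ratio was 1.81-fold (1.77 to 1.85) at 12 months and 1.31-fold (1.28 to 1.35) at 3 months. Cells with at least 3000 UMIs were also thinned to that number, and cells with fewer were left out. This kept 2450 of 2450 and 2244 of 2299 Sftpc-high cells of the 12- and 3-month bleomycin libraries. In the 12- and 3-month PBS libraries it kept 2328 of 2570 and 1952 of 2308. Cell by cell, the median S100a11 count was then 4 in the 12-month bleomycin and 3 in the 3-month bleomycin library, against 2 in both PBS libraries. The top 10% of cells held 25.7 to 27.0% of the thinned counts in the 4 libraries.

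Anxa2, which with S100A10 forms a tetramer at the cell surface and on endosomes, was called higher only at 12 months. Its level was 513.0 CPM in 12-month bleomycin against 305.6 CPM in 12-month PBS Sftpc-high cells, a ratio of 1.68-fold (1.62 to 1.74). At 3 months it was 427.9 CPM in bleomycin against 390.2 CPM in PBS cells (1.10-fold, 1.06 to 1.14). S100a10, its partner, went the other way at both ages. It had 212.6 CPM in 12-month bleomycin against 287.9 CPM in 12-month PBS cells and 274.5 CPM in 3-month bleomycin against 370.6 CPM in 3-month PBS cells, 1.35-fold lower at each age and within the 1.5-fold bound. The genes of the complex differed in direction in these pools.

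Anxa3, an annexin found in alveolar epithelium, had 401.7 and 404.7 CPM in the 12- and 3-month bleomycin libraries and 286.0 and 333.2 CPM in the PBS libraries at those ages, with ratios of 1.40-fold and 1.21-fold. Anxa5, which binds exposed phosphatidylserine, stayed between 105.9 and 140.9 CPM in the 4 libraries, with ratios of 1.04-fold at 12 months and 1.07-fold at 3 months. S100g encodes calbindin-D9k, a calcium carrier. It had 2296 CPM in 12-month bleomycin against 3076 CPM in 12-month PBS cells, and 2837 CPM in 3-month bleomycin against 3594 CPM in 3-month PBS cells. Both bleomycin libraries were below both PBS libraries, by 1.34-fold (1.32 to 1.36) and 1.27-fold (1.25 to 1.28), again within the bound.

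**Figure D1:**
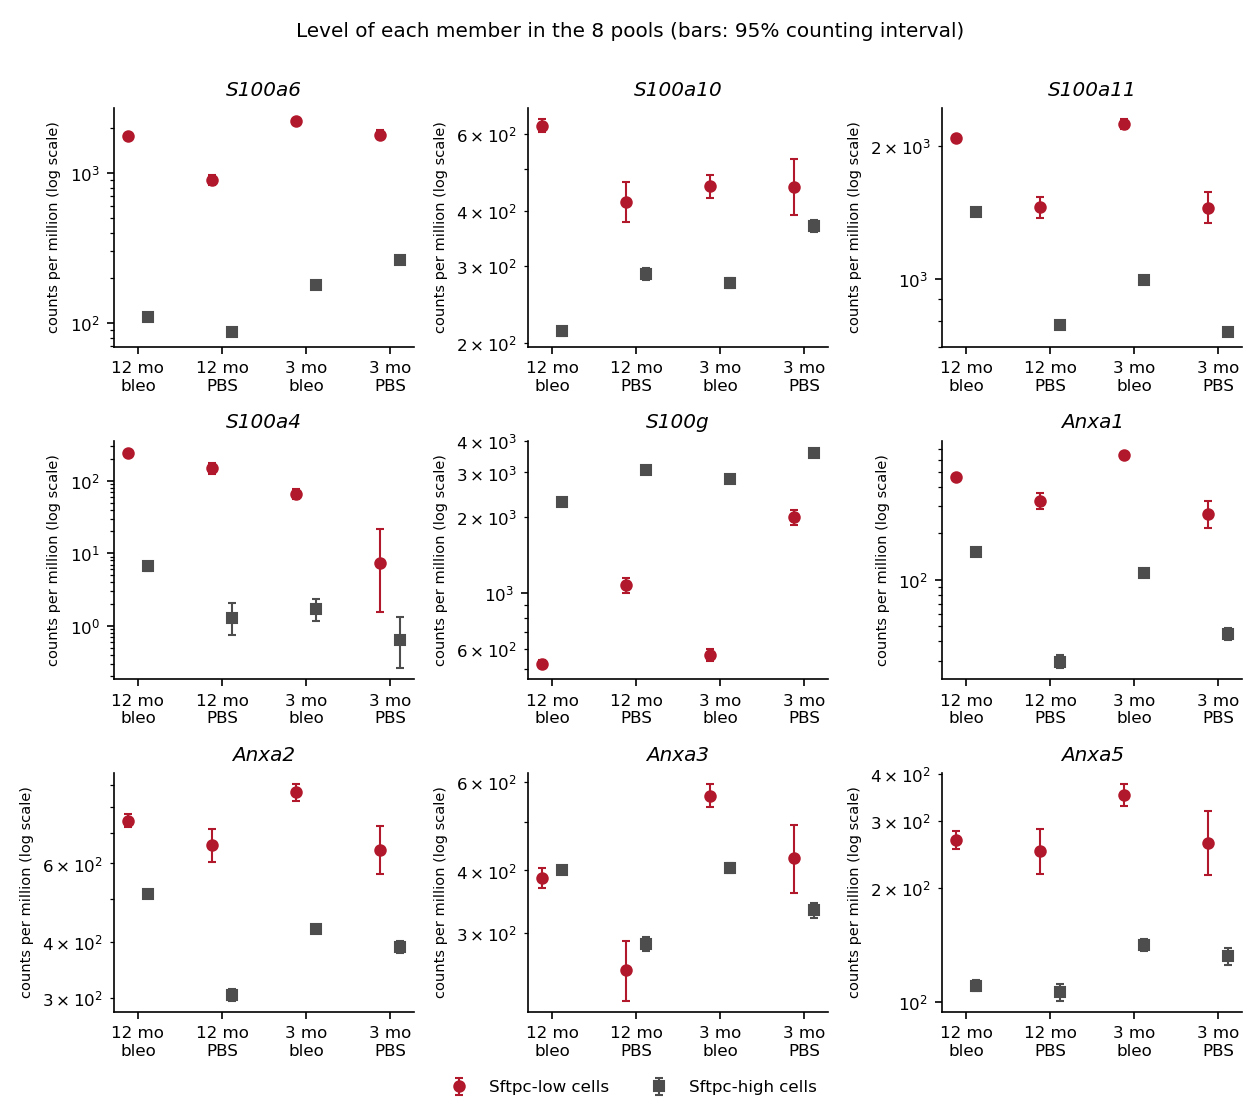
Level of each member in CPM (log axis) in the Sftpc-low (circles) and Sftpc-high (squares) pool of each of the 4 libraries, with 95% counting intervals. S100a6 in Sftpc-low pools lies at 900 to 2230 CPM and in Sftpc-high pools at 87.1 to 264.1 CPM, and S100g is the member whose Sftpc-low pools lie below the Sftpc-high pools in all 4 libraries.

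S100a6, calcyclin, which binds the adaptor CACYBP, was lower at 12 than at 3 months in the Sftpc-high cells of both treatments. In Sftpc-high cells it had 109.6 CPM in 12-month bleomycin and 179.5 CPM in 3-month bleomycin cells, and 87.1 CPM in 12-month PBS and 264.1 CPM in 3-month PBS cells. The 12-month libraries were the lower at either treatment, by 3.03-fold (2.83 to 3.25) in PBS and 1.64-fold (1.56 to 1.72) in bleomycin. The bleomycin call passed 1.5-fold in 11 of 13 alternatives, and within the AT2-like clusters alone it turned round, to 69.5 CPM at 12 months and 60.8 CPM at 3 months (log2 ratio 0.19, against -0.71 over all Sftpc-high cells). Between treatments the direction differed: bleomycin over PBS was 1.26-fold (1.18 to 1.35) at 12 months, and S100a6 was 1.47-fold lower (1.40 to 1.55) at 3 months, neither past 1.5-fold. The difference between the ages, as log2 ratios, was 0.89 (0.77 to 1.01). Within the AT2-like clusters alone, a choice made after seeing the data, S100a6 was lower after bleomycin at both ages, with log2 ratios of -0.19 at 12 months and -1.91 at 3 months, so the direction at 12 months rests on the other Sftpc-high cells.

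The 3-month PBS level rested on part of that library. Of its AT2-like clusters, the one with 1000 Sftpc-high cells, 88.4% of them from this library, had 439.2 CPM of S100a6, and the one with 1391 cells, 86.1% from it, had 74.1 CPM. Both were led by the heat shock genes Hspa1b and Hspa1a. Cacybp moved alongside, at 142.6 CPM in 3-month PBS Sftpc-high cells and 58.6 to 66.7 CPM in the other libraries. The part of heat shock genes in the S100a6 level was not tested.

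Over age, 0 of 8 members were called higher and 2 lower (S100a6 and Anxa1) in PBS Sftpc-high cells, against 2.08% and 3.73% of all genes. Anxa1 lay at the bound, 1.5-fold lower (1.31 to 1.72), and lost its call under other scalings: the median of all genes moved by 0.15 under trimmed-mean (TMM) and by 0.11 under median-of-ratios scaling, and the share of called genes that were higher went to 63.6% and 62.0%, against 35.7% by plain totals. S100a6 kept its call in all 13 alternatives run, the weakest log2 ratio being -1.37. In bleomycin Sftpc-high cells 0 members were called higher and 1 (S100a6) lower at 12 over 3 months, against 4.6% and 2.83% of all genes. S100a11 and Anxa1 had ratios of 1.43-fold and 1.37-fold there. These comparisons share libraries with those of bleomycin over PBS and are not independent of them.

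**Figure D2:**
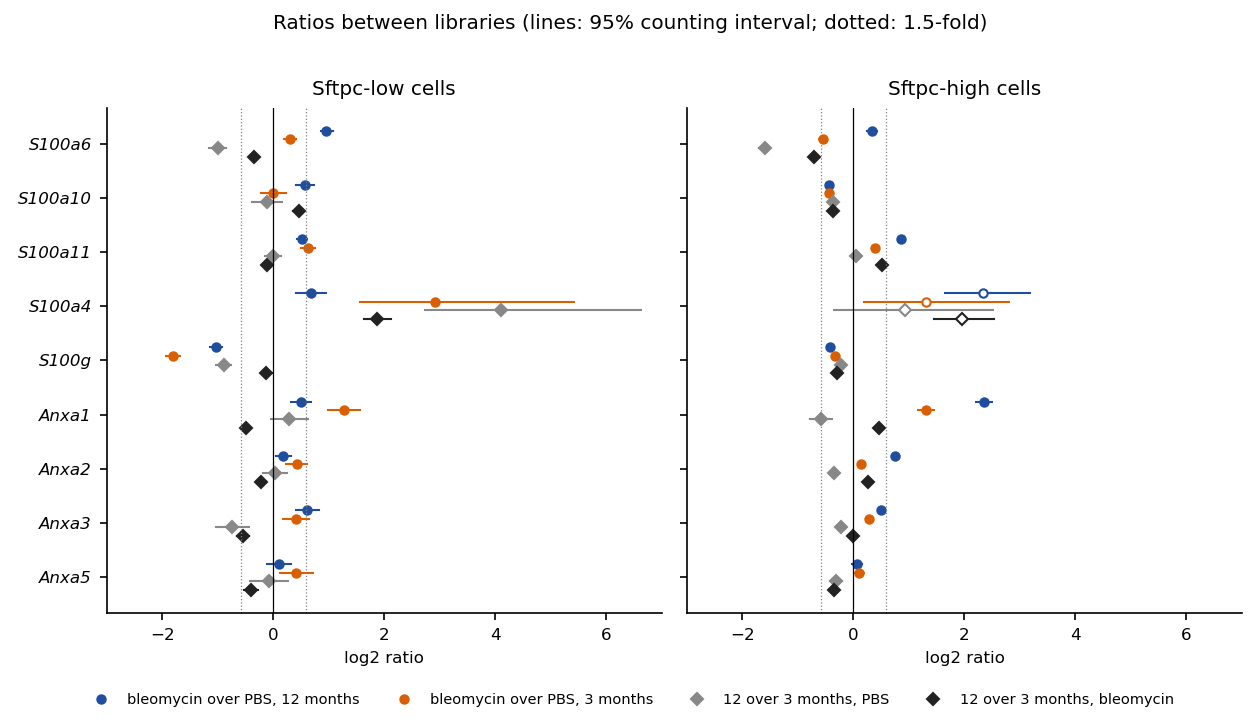
Log2 ratio of each member between libraries in Sftpc-low (left) and Sftpc-high (right) cells for bleomycin over PBS at each age and for 12 over 3 months in each treatment, with 95% counting intervals; dotted lines mark 1.5-fold and open symbols members below the minimum level. Anxa1 lies right of the bound in Sftpc-high cells at both ages (5.09-fold and 2.48-fold), and S100g lies left of it in Sftpc-low cells at both ages.

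S100a6 in Sftpc-high cells came from few cells. With cells of at least 3000 UMIs thinned to that number, its median count was 0 in all 4 libraries. The 99th percentile was 6.51 in 12-month bleomycin, 11.6 in 3-month bleomycin, 6 in 12-month PBS and 12.5 in 3-month PBS cells. The top 10% of cells held 85.3, 85.2, 96.7 and 80.9% of the thinned S100a6 counts in those libraries. For S100g they held 29.1, 24.1, 23.5 and 23.0%, and the median count was 6, 8, 8 and 10. S100a6 counts thus sat in a minority of these cells, and S100g counts were spread over most of them. The levels differed (87.1 to 264.1 CPM for S100a6, 2296 to 3594 CPM for S100g). A lower level alone gives a lower median and a larger top share, and the contrast was not matched for level.

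Among the transitional and AT2-like clusters, S100a6 in Sftpc-high cells was highest in 1, at 912.7 CPM over all libraries. The AT2-like cluster of 1000 cells described above came next at 439.2 CPM, and the other AT2-like clusters had 32.7 to 131.5 CPM. The highest cluster was named transitional alveolar-like from 10 raised markers such as Krt8, Krt7 and Areg, in a clustering that left out all S100 and annexin genes. AT1 markers were raised in it too (Hopx, Pdpn, Cav1, Emp2, Akap5 and Clic5), and no cluster of all cells was named AT1-like. This cluster thus does not separate the transitional from the AT1 state. Its leading genes were Psca, Pmp22 and Hopx, and its top 10 genes held 2 AT1 and 2 transitional markers. It took in 127 (5.18%) of the 12-month bleomycin and 322 (14.0%) of the 3-month bleomycin Sftpc-high cells, against 16 (0.623%) of the 12-month PBS and 16 (0.693%) of the 3-month PBS cells. S100a6 had 801 CPM in the transitional cluster against 69.5 CPM in AT2-like clusters of the 12-month bleomycin library, and 862 against 60.8 CPM in the 3-month bleomycin library. In the PBS libraries it had 855 against 79.2 CPM at 12 months and 3787 against 229 CPM at 3 months. The 4 ratios were 11.5, 14.2, 10.8 and 16.6-fold, in the same order of libraries.

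Anxa1 behaved likewise in the transitional cluster, with 471 against 134 CPM in 12-month bleomycin, 305 against 76.0 CPM in 3-month bleomycin, 315 against 26.6 CPM in 12-month PBS and 398 against 40.8 CPM in 3-month PBS cells. Its AT2-like level was thus itself higher in the bleomycin libraries. S100a11 was 1.67-, 1.69-, 1.72- and 2.57-fold higher in the transitional cluster, in the same order, and Anxa3 2.31-, 2.04-, 3.24- and 2.54-fold higher. Anxa5 was 3.13-, 3.09-, 4.60- and 3.46-fold higher. S100g was lower in the transitional cluster in all 4 libraries, with 2070 against 2313 CPM in 12-month bleomycin and 1863 against 3098 CPM in 12-month PBS cells. The PBS transitional values rest on 16 cells each, and the AT2-like clusters were each mostly of 1 library (64.9 to 98.9% of their Sftpc-high cells), so these clusters do not separate state from library. In the clustering of all cells AT2-like was a default name, for clusters with 0 or 1 raised markers of any class.

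**Figure D3:**
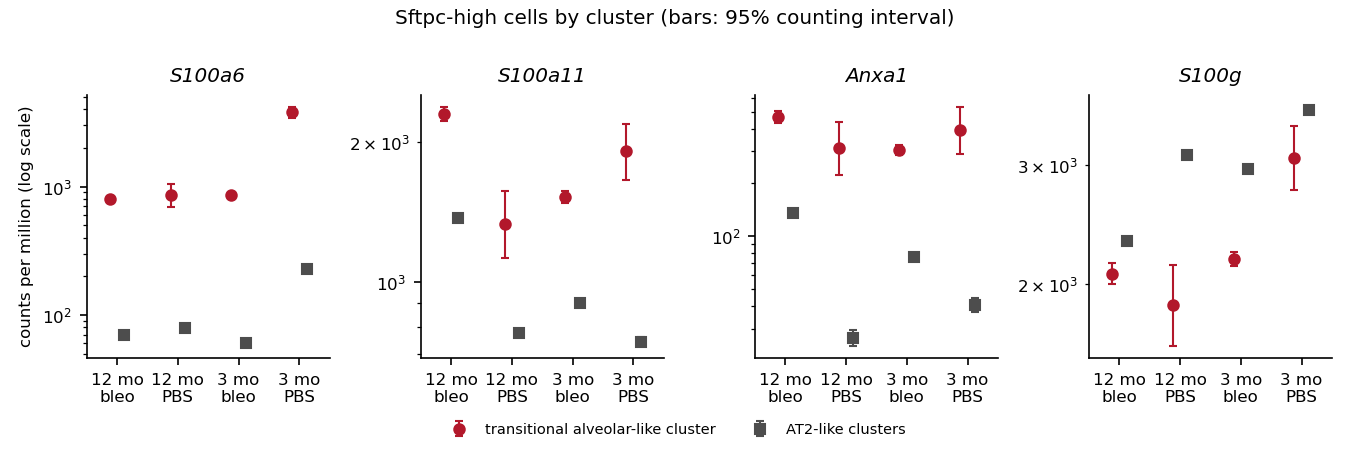
Level of S100a6, S100a11, Anxa1 and S100g in CPM (log axis) in the transitional alveolar-like cluster (circles) and the AT2-like clusters (squares) among Sftpc-high cells of each library, with 95% counting intervals. S100a6 is 10.8- to 16.6-fold higher in the transitional cluster, while S100g is lower there in all 4 libraries.

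Members also varied with how much Sftpc a cell gave, a scale that runs through both pools. Comparing cells with 6 to 10% of UMIs from Sftpc and those with 20% or more, S100a6 had 286.6 CPM at the low end against 40.5 CPM at the high end in 12-month bleomycin cells (7.07-fold, 6.06 to 8.29), and 814.3 against 46.7 CPM in 3-month bleomycin cells (17.4-fold, 14.8 to 20.6). In PBS cells the ratio was 1.92-fold (1.41 to 2.65) at 12 months and 5.61-fold (3.68 to 9.0) at 3 months. Anxa1 showed the gradient in the bleomycin libraries, 4.77-fold (4.22 to 5.40) at 12 months and 5.29-fold (4.46 to 6.30) at 3 months. In the PBS libraries its ratio was 1.30-fold (0.808 to 2.10) at 12 months and 1.21-fold (0.672 to 2.35) at 3 months, intervals that include 1.

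S100a11 did the same, with 2.06-fold (1.99 to 2.14) and 1.84-fold (1.74 to 1.95) in the 12- and 3-month bleomycin libraries and 1.03-fold (0.942 to 1.12) and 1.02-fold (0.903 to 1.16) in the PBS libraries. S100g was lower in the 6 to 10% cells of 3 libraries, at 0.509-fold (0.492 to 0.526) in 12-month bleomycin, 0.737-fold (0.707 to 0.768) in 3-month bleomycin and 0.862-fold (0.825 to 0.902) in 12-month PBS, and above those with 20% or more in 3-month PBS, at 1.10-fold (1.04 to 1.17). Just below and just above the 5% bound (4 to 5% and 5 to 6%), S100a6 had 850.5 and 655.4 CPM in 12-month bleomycin, 1547 and 812.6 CPM in 3-month bleomycin, 1597 and 171.3 CPM in 12-month PBS and 1301 and 68.7 CPM in 3-month PBS cells. Since CPM are shares of a total that includes Sftpc, a lower Sftpc share alone raises every other gene slightly.

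**Figure D4:**
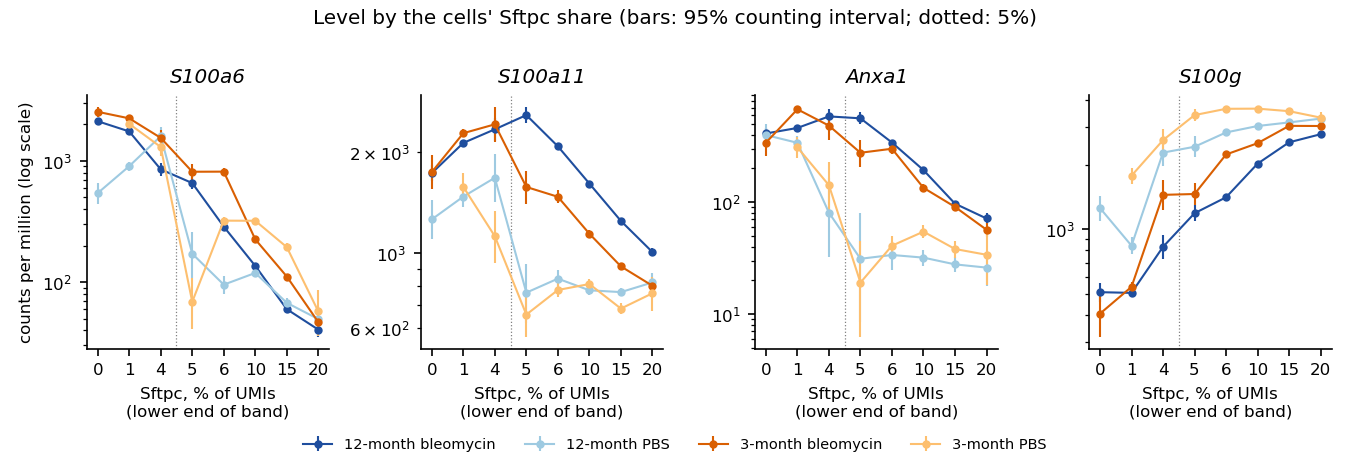
Level of S100a6, S100a11, Anxa1 and S100g in CPM (log axis) by the share of a cell's UMIs that come from Sftpc, in bands named by their lower end, for each library, with 95% counting intervals; bands with fewer than 10 cells are left out and the dotted line is the 5% bound. From the 6 to 10% band to the top band S100a11 drops 2.06-fold and 1.84-fold in the 12- and 3-month bleomycin libraries and is level in the PBS libraries.

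Across the Sftpc bound, most members were higher in Sftpc-low cells of the same library, and S100g was lower. S100a6 had 1752 CPM in Sftpc-low against 109.6 CPM in Sftpc-high cells of the 12-month bleomycin library, a ratio of 16-fold (15.4 to 16.6). The ratio was 12.4-fold in 3-month bleomycin (2230 against 179.5 CPM), 10.3-fold in 12-month PBS (900 against 87.1 CPM) and 6.83-fold in 3-month PBS (1803 against 264.1 CPM). Anxa1 followed at 3.04-, 5.83-, 10.9- and 5.99-fold in those libraries, and Anxa5 at 2.44-, 2.5-, 2.36- and 2-fold. S100g was 4.38-, 4.97-, 2.86- and 1.80-fold lower, with 524, 570, 1075 and 1992 CPM in Sftpc-low cells.

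Members called higher and lower in Sftpc-low cells numbered 5 and 1 of 9 in 12-month bleomycin (31.1% and 12.1% of all genes), 7 and 1 of 9 in 3-month bleomycin (36.2% and 7.77%), 6 and 1 of 9 in 12-month PBS (39.8% and 9.46%) and 5 and 1 of 8 in 3-month PBS cells (31.4% and 7.16%). The median log2 ratio of the members tested was 1.28, 1.18, 1.11 and 0.83 in those libraries, against 0.29, 0.38, 0.40 and 0.29 for all genes tested. Scale bears on these counts, since Sftpc alone took 133061 to 164177 CPM of the Sftpc-high totals and 16336 to 28263 CPM of the Sftpc-low totals. Under TMM scaling the median of all genes moved by -0.45, -0.62, -0.64 and -0.54, and the share of called genes that were higher went to 34.6, 30.3, 30.6 and 24.6%, against 72.1, 82.3, 80.8 and 81.4% by plain totals. Members then called higher and lower were 5 and 1 (15.2% and 28.7% of all genes), 4 and 1 (13.2% and 30.3%), 4 and 2 (15% and 34.1%), and 2 and 1 (9.84% and 30.1%), in the same order. S100a6 and Anxa1 stayed higher and S100g lower in all 4 libraries under TMM and median-of-ratios scaling, while S100a10, S100a11, Anxa2 and, in 3-month PBS under TMM (log2 ratio 0.46), Anxa5 lost calls in some libraries. Anxa3 was called lower in 12-month PBS under both.

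The Sftpc-low pool is a mixture, and the levels of the members differed widely between its classes, which were named from marker genes after clustering without S100 and annexin genes. In such pools fewer cells of a type and less RNA per cell cannot be told apart. The transitional name depended on how finely the cells were clustered. It went to 175 cells in the clustering used here, against 54 at resolution 1 and 53 at resolution 1.5. An unnamed cluster of 116 cells at resolution 1 had Aqp5, Cldn18 and Hbegf raised. The class levels below hold for the clustering used, and levels in the finer ones are not given. Transitional alveolar-like cells (175 cells) had the highest mean of 13 classes, Sftpc-high cells included, for 5 members, taken over libraries with at least 10 such cells. S100a6 had a mean of 5227 CPM over 3 libraries (4068 to 5901), S100a11 3768 CPM (2460 to 4526), Anxa2 1441 CPM (1194 to 1654), Anxa3 1170 CPM (851.5 to 1468) and Anxa1 1010 CPM (378.4 to 1663). The 12-month PBS library, with 9 such cells, was left out of these means, and its S100a6 level of 2140 CPM lies below the range given. The next class overlapped these ranges for S100a11 (ciliated-like, 3650 CPM), Anxa1 (ciliated-like, 942 CPM), Anxa2 (ciliated-like, 1395 CPM), Anxa3 (AT1-like, 1140 CPM) and S100a6 (mesothelial-like, 4566 CPM), so the order of the top classes is not separated beyond the spread over libraries.

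The other members had other homes. S100a4, a protein of motile cells, had 1146 CPM in T or NK-like cells (941 to 1378 over 3 libraries), 662 CPM in an unnamed cluster that expresses Siglech and Cd209d, and 306 CPM in mesenchymal-like cells, against 2.5 CPM in Sftpc-high cells and 10.8 CPM in transitional cells. S100a10 was highest in T or NK-like cells (1606 CPM, 1452 to 1725), then in mesothelial-like (1340 CPM) and transitional cells (923 CPM, 819 to 1064). Anxa5 was highest in AT1-like cells, at 954 CPM (759 to 1149), then in transitional cells at 511 CPM (438.4 to 633.7), and these ranges did not overlap. S100g was at 3352 CPM in AT2-like Sftpc-low cells (2689 to 3987) and 2951 CPM in Sftpc-high cells, then at 764 CPM in transitional cells. Its lowest class, T or NK-like cells, which are not known to make it, still had 226 CPM. A level near that is therefore not read as expression by a class. Where these counts came from, such as free RNA in the droplets, was not tested.

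**Figure D5:**
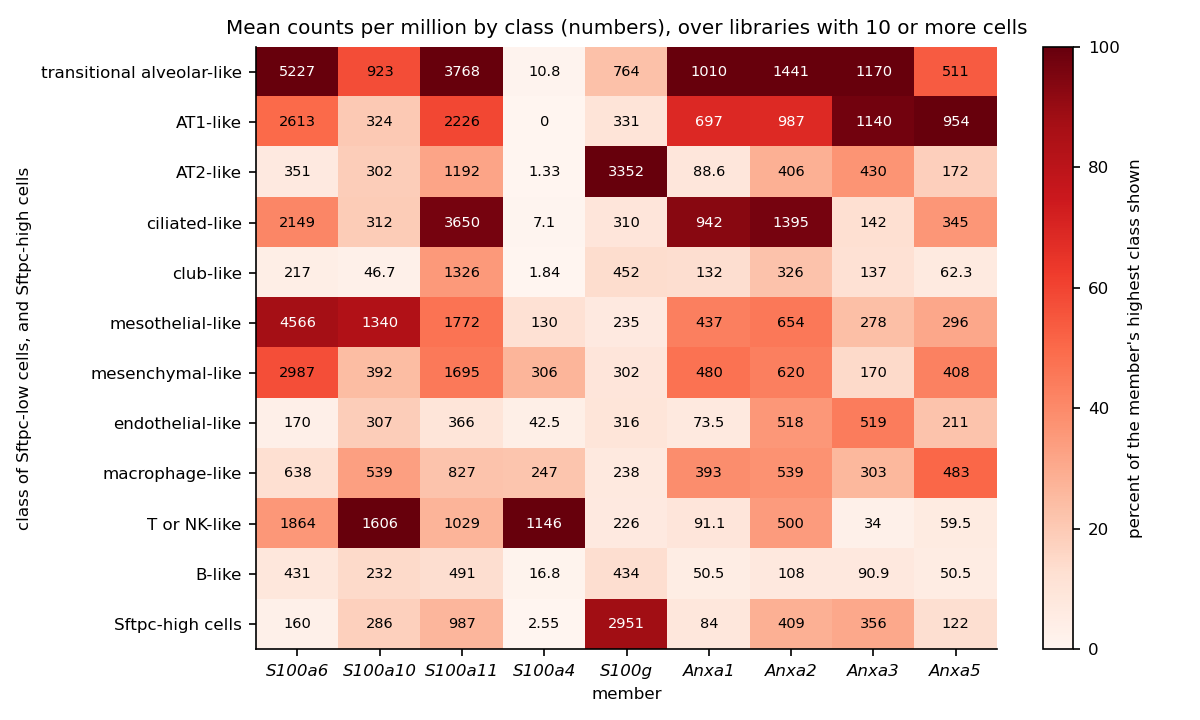
Mean CPM of each member (numbers) in each class of Sftpc-low cells and in Sftpc-high cells, over libraries with 10 or more cells of the class; the shade gives the percent of that member's highest class. S100a6, S100a11, Anxa1, Anxa2 and Anxa3 have their highest mean in transitional alveolar-like cells, with ranges over libraries that overlap the next class. The 12-month PBS library, with 9 transitional cells, is left out of that class. The transitional name went to 175 cells in the clustering shown, against 54 at resolution 1 and 53 at resolution 1.5. S100a4 and S100a10 have their highest mean in T or NK-like cells, Anxa5 in AT1-like cells and S100g in AT2-like cells.

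In the Sftpc-low pools S100a4 was called higher and S100g lower after bleomycin at both ages. At 12 months the S100a4 call passed 1.5-fold in 10 of 13 alternatives, with a log2 ratio of 0.08 in transitional cells alone, and the S100g call in 12 of 13. S100g had 524 CPM in 12-month bleomycin against 1075 CPM in 12-month PBS cells (2.05-fold lower, 1.90 to 2.21), and 570 CPM in 3-month bleomycin against 1992 CPM in 3-month PBS cells (3.49-fold lower, 3.20 to 3.81). AT2-like cells, where S100g is highest, were 4.42% of Sftpc-low cells in 12-month bleomycin and 9.54% in 3-month bleomycin, against 25.7% in 12-month PBS and 41.9% in 3-month PBS. S100a4 had 239.7 CPM in 12-month bleomycin against 149.4 CPM in 12-month PBS (1.60-fold, 1.33 to 1.94). At 3 months it had 65.6 CPM in bleomycin against 7.46 CPM in PBS cells, where 3 counts were seen (7.56-fold, 2.96 to 43.1). T or NK-like cells were 12.0% and 4.92% of Sftpc-low cells in the 12- and 3-month bleomycin libraries, and 9.71% and 0% in the PBS libraries. In the 3-month PBS pool 6 of the 7 T or NK markers were at 0. The part of these class shares in the S100g and S100a4 ratios was not tested. Depth also differed: all 543 Sftpc-low cells of 12-month bleomycin had at least 3000 UMIs, against 266 of 325 in 3-month bleomycin. In 12- and 3-month PBS 96 of 175 and 51 of 86 did, and the part of depth in the shares was not tested.

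S100a6 was called higher at 12 months only. It had 1752 CPM in bleomycin against 900 CPM in PBS Sftpc-low cells (1.95-fold, 1.81 to 2.10), and at 3 months 2230 against 1803 CPM (1.24-fold). Anxa1, called higher at 3 months only, had 459 CPM in bleomycin against 324 CPM in PBS cells at 12 months (1.42-fold), and 644 against 266 CPM at 3 months (2.41-fold, 1.99 to 2.97). S100a11 had ratios of 1.44-fold at 12 months and 1.55-fold at 3 months, and Anxa3 of 1.52-fold and 1.33-fold. In all, 3 of 9 were called higher (S100a6, S100a4 and Anxa3) and 1 lower at 12 months, against 15.4% and 22.3% of all genes. At 3 months 3 of 9 were higher (S100a11, S100a4 and Anxa1) and 1 lower, against 20.7% and 16.6%. The transitional markers summed to 4846 and 6424 CPM in the 12- and 3-month bleomycin pools and 2452 and 2966 CPM in the PBS pools, with 0 of 14 at 0. With the clusters named as non-alveolar types left out, 6 members were higher at 12 months and 5 at 3 months, against 25.3% and 32.9% of all genes.

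Over age in Sftpc-low cells, S100a4 was the 1 member called higher in PBS (17.2-fold, 6.70 to 98.5, on 3 counts at 3 months), against 18.3% of all genes, and 3 were lower (S100a6 2.00-fold, S100g 1.85-fold, Anxa3 1.67-fold), against 15.7%. In bleomycin cells S100a4 was again the 1 higher member, with 239.7 CPM at 12 months and 65.6 CPM at 3 months (3.64-fold, 3.1 to 4.33), and 0 were lower, against 11.2% and 20.8% of all genes. The 12 macrophage markers, none at 0, came to 2929 CPM together in the 12-month bleomycin and to 816 CPM in the 3-month bleomycin Sftpc-low cells. Their part was not tested.

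Within the transitional alveolar-like Sftpc-low cells, Anxa1 and S100a6 took different courses at the 2 ages, a difference that was not tested. Anxa1 had 989 CPM in 85 bleomycin cells against 821 CPM in 9 PBS cells at 12 months (1.20-fold, 0.920 to 1.61). At 3 months it had 1663 CPM in 67 bleomycin cells against 378 CPM in 14 PBS cells (4.33-fold, 3.09 to 6.47). S100a6 did the reverse, with 4068 against 2140 CPM at 12 months (1.89-fold, 1.61 to 2.26) and 5711 against 5901 CPM at 3 months (0.967-fold, 0.880 to 1.07). S100a11 had ratios of 1.31-fold at 12 months and 1.84-fold at 3 months, Anxa3 of 1.87-fold and 1.71-fold, and S100g of 0.572-fold and 0.384-fold. The PBS values rest on few cells. All these ratios hold for the class as clustered here, and its name went to fewer cells in the finer clusterings.

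In AT2-like Sftpc-low cells, 24 from 12-month bleomycin, 31 from 3-month bleomycin, 45 from 12-month PBS and 36 from 3-month PBS, S100a11 and Anxa1 were again higher after bleomycin at both ages. S100a11 had 1698 CPM in 12-month bleomycin against 827 CPM in 12-month PBS cells (2.05-fold, 1.70 to 2.49) and 1498 against 747 CPM at 3 months (2.00-fold, 1.61 to 2.52). Anxa1 had 154 against 26.5 CPM at 12 months (5.38-fold, 2.25 to 19.1) and 126 against 48.0 CPM at 3 months (2.49-fold, 1.11 to 7.12). S100a6 was lower in bleomycin at both ages, with 62.7 against 429 CPM at 12 months and 275 against 637 CPM at 3 months. S100g was 1.06-fold at 12 months and 0.674-fold at 3 months. Ciliated-like cells had more S100a6 after bleomycin, at 2529 against 954 CPM at 12 months (2.64-fold, 2.18 to 3.24) and 2963 against 997 CPM at 3 months (2.93-fold, 2.13 to 4.27), the 3-month PBS value from 7 cells.

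Cells that had more of one member often had more of another. Over 956 Sftpc-low cells thinned to 3000 UMIs, the mean Pearson r of log values over the 4 libraries was 0.42 for S100a11 with Anxa1 and for S100a11 with Anxa2, 0.41 for Anxa1 with Anxa2, 0.39 for S100a6 with S100a11 and 0.37 for S100a6 with S100a10. S100a10 with Anxa2, the tetramer pair, had 0.23, and S100a6 with S100g had -0.26. Among Sftpc-high cells the largest mean of any pair was 0.17, for S100a6 with Anxa1. These cells share libraries, depth and mixture, so the values describe the pool and carry no test. Cells under 3000 UMIs were left out. This kept 543 of 543 and 266 of 325 Sftpc-low cells of the 12- and 3-month bleomycin libraries. In the 12- and 3-month PBS libraries it kept 96 of 175 and 51 of 86.

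By the same measure over 2198 genes, the keratins Krt8, Krt18, Krt19 and Krt7 and the galectin gene Lgals3 were the genes most like several members. Krt8 was the most like S100a11 (r = 0.50) and Anxa1 (0.45), Krt19 the most like Anxa2 (0.40), Krt7 the most like Anxa3 (0.46), and Lgals3 the most like S100a6 (0.48) and Anxa5 (0.36). S100g was most like Sftpa1 (0.52), S100a10 most like the actin-binding gene Tmsb10 (0.36) and S100a4 most like Emp3 (0.39). Krt8, Krt7, Krt18, Krt19 and Lgals3 are themselves in the transitional marker list used to name the classes.

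Other genes of these families and their partners were counted from lists. Of 19 other S100 and annexin genes, 9 reached the minimum in Sftpc-high cells at 12 months and 2 were higher, S100a8 at 37.7 CPM in bleomycin against 3.69 CPM in PBS cells and S100a9 at 30.5 against 5.72 CPM. At 3 months 8 reached it and Anxa7, a phospholipid-binding annexin, was the 1 called higher (63.9 CPM in bleomycin against 41.8 CPM in PBS cells), and 0 were lower at either age, against 18.5% of all genes higher and 10.6% lower at 12 months and 8.99% and 11.1% at 3 months. The list's median log2 ratio was -0.01 at 12 months and 0.08 at 3 months, against 0.10 and -0.01 for all genes. S100a8 and S100a9 encode calprotectin, a neutrophil protein, and the neutrophil list, which holds both genes, summed to 112 CPM in the 12-month bleomycin and 16.5 CPM in the 12-month PBS Sftpc-high pool. Their part was not tested.

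Of 18 partners and receptors, Ahnak, a scaffold of the S100A10 and annexin A2 complex, was lower after bleomycin in Sftpc-high cells at both ages, at 42.4 against 100.8 CPM at 12 months (2.38-fold lower, 2.20 to 2.57) and 62.9 against 105.1 CPM at 3 months (1.67-fold lower, 1.54 to 1.81). Plgrkt, a plasminogen receptor gene, was higher at both, 36.9 against 19.2 CPM at 12 months and 29.4 against 18.4 CPM at 3 months. Cacybp, which binds S100A6, was lower at 3 months only, at 66.2 against 142.6 CPM, and Ager, the receptor for several S100 proteins and an AT1 marker, was higher at 12 months only (2056 against 1301 CPM, 1.58-fold). Called over tested were 2 higher and 1 lower of 8 at 12 months, against 18.5% and 10.6% of all genes, and 1 higher and 2 lower of 9 at 3 months, against 8.99% and 11.1%.

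Of 9 genes of calcium transport, 1 reached the minimum and 0 were called in Sftpc-high cells in either bleomycin comparison.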

How the data were processed

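Single-cell 3' libraries, 1 per group and each of 3 pooled mice, were deposited by the authors as UMI counts, whole numbers per gene and cell. Per the submitters' processing notes, Cell Ranger, Seurat 3.2.2 and the mm10 build were used; filters on barcodes are not given in the sources used here. Barcodes under 500 genes or over 20% mitochondrial UMIs were removed, and the rest were split at 5% Sftpc. Counts were summed per library and pool and scaled to CPM (counts per 1000000 of that total); ratios add 0.5 counts, and intervals are exact conditional-binomial for ratios, exact Poisson for levels and Clopper-Pearson for shares (95%). A call needs 1.5-fold, 20 CPM in 1 pool and 20 counts over both. With 1 library a group no test was run. Median depth was 4564 to 12520 UMIs per Sftpc-high cell and 3524 to 7439 per Sftpc-low cell, and 3 counts are 0.593 to 7.46 CPM in Sftpc-low pools.

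Clusters were made with scanpy 1.11.5 (Leiden, 2000 variable genes, 30 components, S100 and annexin genes left out). Resolution was 0.5 for Sftpc-low and 1 for all cells. They were named from fixed marker lists by at least 3 raised markers, by a rule written after the clusters were seen. Sftpc-low cells named transitional alveolar-like numbered 175 at resolution 0.5, 54 at resolution 1 and 53 at resolution 1.5. A cluster of 116 cells at resolution 1 and one of 100 cells at 1.5, both led by Cyr61, stayed unnamed. At 1.5 a further AT1-like cluster of 31 cells was named. In the clustering of all cells AT2-like was instead the default name. It went to clusters with 0 or 1 raised markers of any class and at least 3 AT2 markers found in 20% or more of the cells. Doublets were scored with Scrublet at 0.8% per 1000 barcodes (68 to 100 called per library) and kept. Scaling alternatives used TMM (edgeR 4.0.16) and median-of-ratios factors. The ratio code was tested on simulated data. Named genes are the 9 members, up to 4 called genes of each fixed list per comparison, and the genes most like each member by correlation. The members, lists and markers were chosen with earlier results of these data known. Protein sequences were not used here. One further list of genes is not reported here.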

Additional observations from a re-analysis of the deposited data

Results flagged for a closer look

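S100a6 in Sftpc-high cells moved in opposite directions at the 2 ages: the log2 ratio of bleomycin over PBS was 0.33 at 12 months (109.6 against 87.1 CPM) and -0.56 at 3 months (179.5 against 264.1 CPM). With 1 library per group, the difference between the ages was not tested beyond its counting interval. The 3-month value kept its sign in 13 of 13 alternatives, and the 12-month value in 11 of 13.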

How the results depend on the processing

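Over 24 counts of members called, 297 of 352 checks under 13 alternatives, and 3 more chosen after seeing the data, stayed within 1.5 times and 55 moved. Of 1368 log2 ratios under alternatives, called or not, 1292 kept the sign of the value reported. Among called ratios the sign reversed in 3 checks. Of 47 called ratios 26 passed 1.5-fold in every alternative, among them Anxa1 and S100a11 after bleomycin in 12-month Sftpc-high cells. Doublets left out and a stricter cell filter moved no count. No paired analysis was possible because each group is 1 library.

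Counts are given against the value reported; "low" and "high" stand for Sftpc-low and Sftpc-high cells. With TMM scaling, members higher were 2 (against 1) in low cells at 12 over 3 months in bleomycin, 6 (3) in low bleomycin over PBS at 12 months, and 4 (7) and 2 (5) in low over high in 3-month bleomycin and 3-month PBS; lower were 1 (2) in high 12 over 3 months in PBS and 2 (1) in low over high in 12-month PBS. With median-of-ratios scaling the first was 2 (1), low over high in 3-month PBS was 3 (5), and the last pair of lower counts were 1 (2) and 2 (1). In low cells at 12 over 3 months in bleomycin these scalings moved the median of all genes by 0.19 and 0.17 and the share of called genes that were higher to 57.6 and 63.6%, against 34.9%. Without the 20 most abundant genes, 1 (3) was higher in low bleomycin over PBS at 12 months, and lower were 1 (2) in high 12 over 3 months in PBS and 2 (0) in low 12 over 3 months in bleomycin. The lower count in high 12 over 3 months in PBS was also 1 (2) with a minimum of 100 CPM, with no filter on cells, with cells thinned and with every cell weighing the same. With no minimum beyond 20 counts, higher were 1 (0) in high 12 over 3 months in each treatment and 2 (1) in high bleomycin over PBS at 3 months.

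With Sftpc at 2%, 5 (3) were higher in low bleomycin over PBS at 3 months; lower were 1 (3) in low 12 over 3 months in PBS, 2 (0) in low and 0 (1) in high 12 over 3 months in bleomycin, and 1 (0) in high bleomycin over PBS at 3 months. With Sftpc at 10%, higher were 7 (3) in low bleomycin over PBS at each age, 2 (1) in low 12 over 3 months in PBS, and 3 (6) and 1 (5) in low over high in 12- and 3-month PBS; lower were 0 (1) in those last comparisons, 1 (3) in low 12 over 3 months in PBS and 1 (0) in high bleomycin over PBS at 3 months. At 10% Anxa2 in low over high, 3-month PBS, reversed to a log2 ratio of -0.21 (0.73). With cells thinned to 3000 UMIs, higher were 6 (3) in low bleomycin over PBS at 3 months and 2 (1) in low 12 over 3 months in PBS, and lower 3 (0) in low 12 over 3 months in bleomycin; with every cell weighing the same, 6 (3) and 2 (0) in the first and last of these.

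With non-alveolar clusters left out, higher were 6 (3) and 5 (3) in low bleomycin over PBS at 12 and 3 months and 0 (1) in low 12 over 3 months in bleomycin; lower were 1 (3) in low 12 over 3 months in PBS and 0 (1) in low over high in each PBS library. Cells with no leukocyte marker UMI gave 5 (3) and 6 (3) higher in low bleomycin over PBS at 12 and 3 months, and 0 (1) lower at 12 months and 1 (0) lower in low 12 over 3 months in bleomycin. Of low cells this kept 55 of 543 and 178 of 325 in 12- and 3-month bleomycin, and 108 of 175 and 75 of 86 in PBS. Of high cells it kept 260 of 2450 and 1341 of 2299 in bleomycin, and 2041 of 2570 and 1957 of 2308 in PBS. It thus compares unlike parts of the libraries, most of all for 12-month bleomycin. AT2-like clusters alone gave 2 (0) higher and 0 (1) lower in high 12 over 3 months in bleomycin, where S100a6 reversed to a log2 ratio of 0.19 (-0.71), and 1 (0) lower in high bleomycin over PBS at 3 months. Transitional cells alone gave 2 (1) higher and 1 (0) lower in low 12 over 3 months in bleomycin and 1 (3) lower in PBS, where S100g reversed to 0.33 (-0.89), on 9 cells at 12 months and 14 at 3 months. The cause of these changes was not tested. The 3-month PBS Sftpc-low pool, with 86 cells and 402159 UMIs, sets the precision of every ratio that uses it.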

Other observations

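Among family members outside the 9, Anxa8, an annexin of stratified and injured epithelium, had its higher levels in Sftpc-low cells, at 24.9 CPM in 12-month bleomycin, 58.3 CPM in 3-month bleomycin, 51.4 CPM in 12-month PBS and 14.9 CPM in 3-month PBS, against at most 0.440 CPM in any Sftpc-high pool. S100a8 and S100a9 did not follow treatment in Sftpc-low cells: S100a8 had 447 CPM in 12-month bleomycin and 12.1 CPM in 3-month bleomycin, and 68.1 CPM in 12-month PBS and 1017 CPM in 3-month PBS cells.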
